A study of Rattus norvegicus with 16 samples.

Results

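Restraint was examined by setting all 8 rats that were restrained against all 8 that were not, with linalool inhalation as the second factor. The rats were chosen by their sample titles alone, and these 16 arrays were all 16 of the series. Each array held RNA from the hypothalamus of 1 male Wistar rat aged 7 to 8 weeks, and since no 2 arrays share a rat per the labels, p-values measure the spread between rats. The 8 unrestrained rats were 4 untreated controls and 4 rats that inhaled (R)-(-)-linalool, a floral monoterpene alcohol, for 2 h. The 8 restrained rats were 4 that were restrained for 2 h and 4 that were restrained for 2 h while they inhaled linalool. The pooled comparison asks which transcripts differed with restraint whether or not the odour was present.

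Restraint is a standard stressor of laboratory rats. Neurons of the hypothalamus that secrete corticotropin-releasing hormone drive the pituitary and, through it, the adrenal gland, whose glucocorticoid hormone returns to the brain and switches on genes through the glucocorticoid receptor. Neuronal firing switches on immediate early genes such as Fos. Misfolded protein or raised temperature switches on heat shock genes through heat shock factors. These factors bind repeats of the letters GAA and their reverse complement TTC in promoters.

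Signals are given on the log2(signal + 16) scale after quantile normalization between arrays, which gives every array the same distribution and so hides a change shared by most transcripts. The difference with restraint is the mean of 2 differences, restraint minus control and restraint with linalool minus linalool. A gene was called where the Benjamini-Hochberg adjusted p of limma's test was under 0.05 over the 18625 probe sets kept. On this scale the change of a dim gene is understated. Before normalization the median signal of an array lay between 67.0 and 116 in unrestrained rats and between 87.3 and 127 in restrained rats. BioC, a transcript added at hybridization, read 916 to 968 on 3 arrays (linalool rats 2 and 4 and restraint with linalool rat 2) and 248 to 283 on the other 13, which are called the BioC-low arrays below. The markers of hypothalamus were present, with melanin-concentrating hormone (Pmch) between 12.42 and 13.07, hypocretin (Hcrt) between 9.05 and 10.87, oxytocin (Oxt) between 12.15 and 12.92 and vasopressin (Avp) between 11.18 and 12.41 over the 16 rats. Cga, a pituitary hormone subunit, lay between 11.06 and 12.27 in 15 rats and was at 6.88 in control rat 3, and it was not called (0.55, SE 0.59, adjusted p = 0.68).

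Restraint raised 250 of 10309 genes and lowered 199 (449 in all, 4.36%), each gene represented by its brightest probe set. The rises are 2.43% and the falls 1.93% of the genes tested, the shares against which every gene list below is read. The lists were chosen with earlier results of these data known, so a higher share in a list is not independent support. Counted as probe sets, 784 of 18625 were called (4.21%), 493 higher (2.65%) and 291 lower (1.56%). Rises reached further than falls. The log2 difference was over 1 for 16 of the genes called higher and under -1 for 1 gene called lower, and the medians of called probe sets were 0.43 and -0.34. In 74 genes (0.718%) all 8 restrained rats lay above all 8 unrestrained rats, and in 32 (0.31%) all lay below. The count of falls varied as single arrays were left out. It was 148 without linalool rat 3, 165 without linalool rat 1, and 163 and 168 without restraint rats 1 and 2. It was 168 and 161 without restraint with linalool rats 1 and 2, and 382 without control rat 1. The count of probe sets called higher ran from 341 to 623 with 1 array left out. With the values as deposited, in which the median probe set is 0.21 higher in restrained rats, 98.2% of calls were higher against 62.9% after normalization. Of the 291 probe sets called lower, 276 were also lower in restrained rats as deposited, and 19 probe sets were called lower there.

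**Figure D1:**
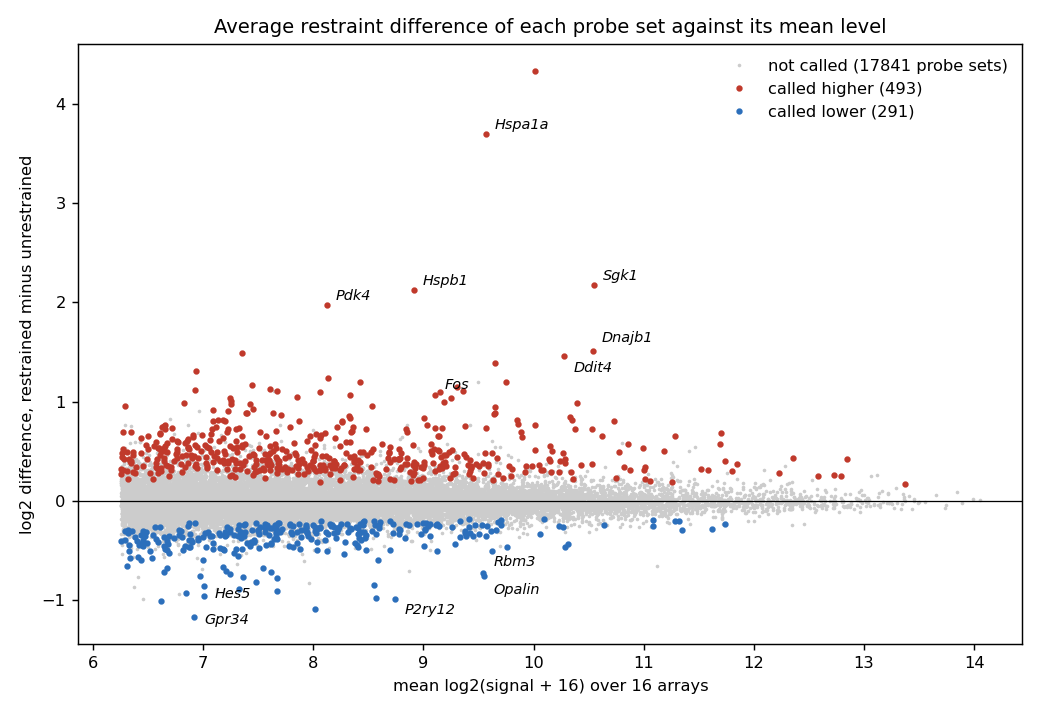
Each point is 1 of 18625 probe sets, with its mean level over 16 arrays on the horizontal axis and its average restraint difference on the vertical axis, both on the log2(signal + 16) scale. The 493 probe sets called higher reach past 4, while the 291 called lower end near the 1.17 by which Gpr34 fell.

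Most of the glucocorticoid-responsive genes tested rose. Of 18 tested genes of a list of glucocorticoid-responsive kinase, fuel and growth genes, 15 rose and 0 fell, with a median difference of 0.77 against -0.02 over all genes. In 10 of the 18 the restrained and unrestrained rats did not overlap. Sgk1, a kinase gene induced by glucocorticoids, read 9.13 to 9.78 in unrestrained rats (median 9.50) and 11.28 to 11.96 in restrained rats (median 11.58). Every restrained rat was thus above every unrestrained rat, with a 4.50-fold higher mean (log2 2.17, SE 0.08, adjusted p = 3.81e-10). Pdk4, whose kinase turns cells from glucose to fat as fuel, read 6.92 to 7.69 against 8.88 to 9.65 (medians 7.08 and 9.00). The 2 sets again stood apart, with a difference of 1.97 (SE 0.12, adjusted p = 1.28e-07). Ddit4, an inhibitor of mTOR signalling, read 9.22 to 9.87 against 10.77 to 11.19 and rose by 1.46 (SE 0.09, adjusted p = 8.75e-08).

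Other members of this list rose by about 1 on the log2 scale or less. Errfi1, a brake on the epidermal growth factor receptor, rose by 1.10 (SE 0.09), the repressor gene Bcl6 by 1.10 (SE 0.10), and the transcription factor gene Cebpd by 1.03 (SE 0.18). Their restrained and unrestrained values did not overlap. Gpd1, a glycerol phosphate dehydrogenase, rose by 0.99 (SE 0.12), with 9.50 to 10.53 in unrestrained and 10.41 to 11.42 in restrained rats. Its overlap came from linalool rat 4 at 10.53 and restraint with linalool rat 1 at 10.41. Tiparp rose by 0.70 (SE 0.06), the Krüppel-like factor gene Klf15 by 0.65 (SE 0.07), and Cdkn1a, a cell cycle inhibitor, by 0.63 (SE 0.16). Cdkn1a was called at an adjusted p of 0.0359 and missed the threshold in 11 of 16 fits that left out 1 array. The members that did not pass were the metallothionein gene Mt2A (0.47, adjusted p = 0.0849), Angptl4 (0.26, adjusted p = 0.221) and Glul, glutamine synthetase (0.16, adjusted p = 0.31).

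Genes by which glucocorticoids limit their own action and inflammation rose in 7 of 15 cases. The list's median was 0.40. Nfkbia, the inhibitor of NF-kappaB, read 7.47 to 8.12 in unrestrained rats and 8.73 to 9.30 in restrained rats, a difference of 1.20 (SE 0.10, adjusted p = 4.39e-06). Tsc22d3, which encodes the anti-inflammatory protein GILZ, rose by 0.81 (SE 0.08, adjusted p = 3.49e-05), and Fkbp5, whose protein lowers the hormone affinity of the glucocorticoid receptor, by 0.81 (SE 0.10, adjusted p = 0.000174). In all 3 genes the 8 restrained rats lay above the 8 unrestrained rats. Mertk, a receptor for dying cells, rose by 0.40 (SE 0.08, adjusted p = 0.00881). Bhlhe40, a transcriptional repressor, was the 1 member that fell, by 0.49 (adjusted p = 0.0464), and it missed the threshold in 13 of 16 fits that left out 1 array. Nr3c1, the glucocorticoid receptor itself, was not called (-0.05, SE 0.07, adjusted p = 0.721).

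**Figure D2:**
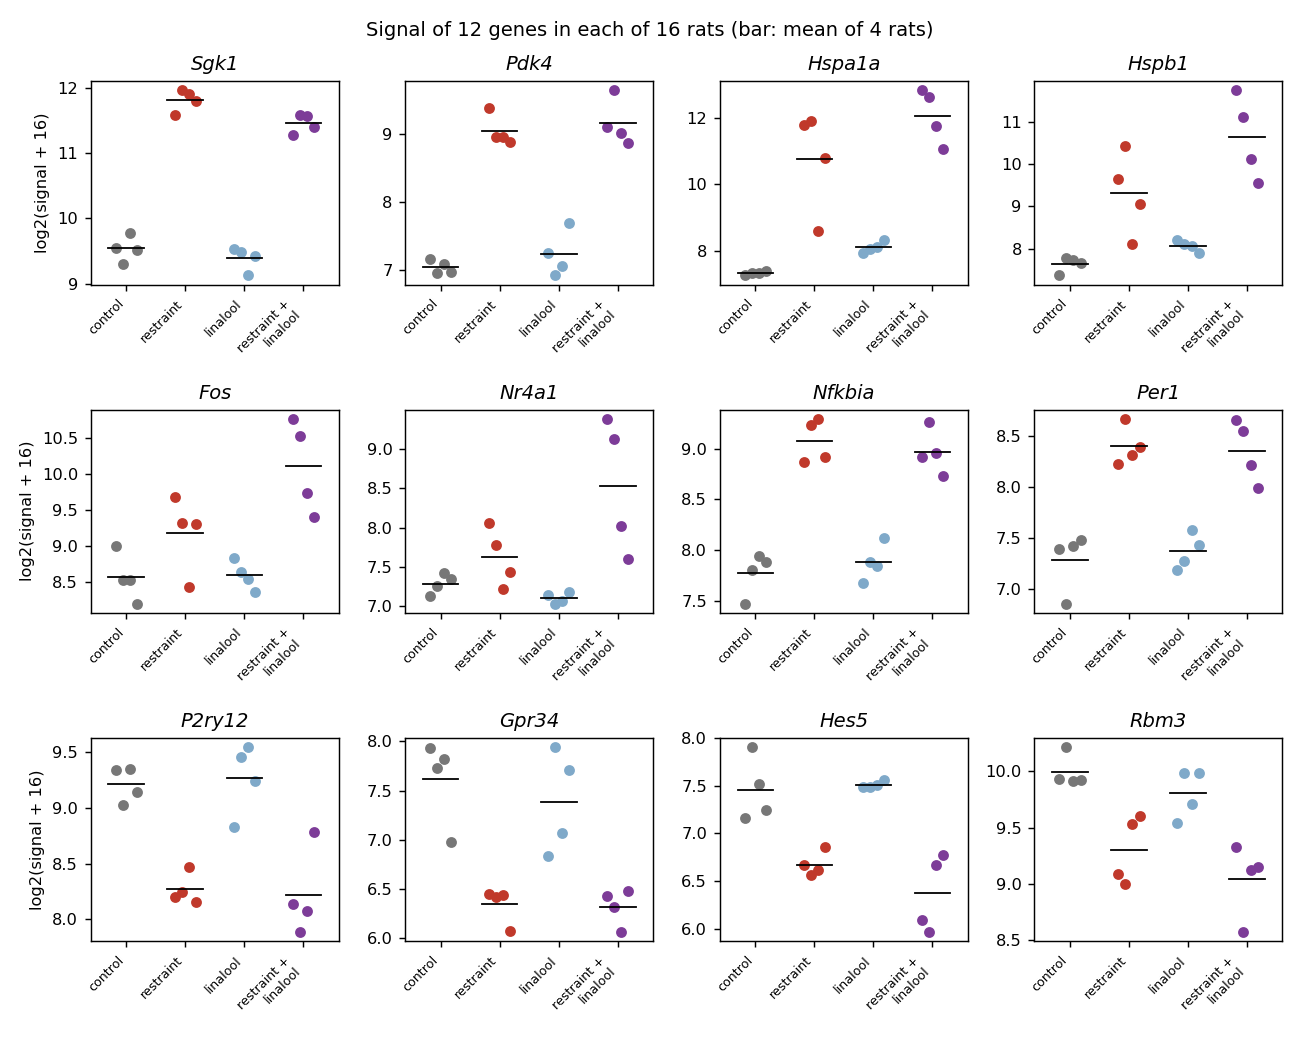
Signal of 12 genes in each of the 16 rats on the log2(signal + 16) scale, with 4 points per group and a bar at the group mean. Sgk1, Pdk4, Nfkbia and Per1 separate both restrained groups from both unrestrained groups, Fos and Nr4a1 overlap, and P2ry12, Gpr34 and Hes5 lie lower in every restrained rat.

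Heat shock genes rose together. In the heat shock list 17 of 23 tested genes rose, 0 fell and the median was 0.40. The promoter sequences of 5 of them are shown because they hold the heat shock element. Each is the stretch of 150 bases before the RefSeq start on build GRCr8, 5′ to 3′ on the gene's own strand, with matches to GAANNTTC or TTCNNGAA in capitals. Hspb1 lies on the minus strand at chr12:26432302-26432451, Dnajb1 on the minus strand at chr19:41431142-41431291, Hspb8 on the plus strand at chr12:45837158-45837307, Hsph1 on the plus strand at chr12:10427218-10427367 and Hspe1 on the plus strand at chr9:64084177-64084326.
Hspb1: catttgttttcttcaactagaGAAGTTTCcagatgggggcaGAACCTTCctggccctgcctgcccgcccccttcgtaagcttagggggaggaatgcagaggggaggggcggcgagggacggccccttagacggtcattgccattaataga
Dnajb1: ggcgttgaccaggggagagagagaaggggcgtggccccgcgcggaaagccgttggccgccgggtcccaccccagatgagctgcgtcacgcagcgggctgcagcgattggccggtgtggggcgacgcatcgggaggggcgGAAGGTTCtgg
Hspb8: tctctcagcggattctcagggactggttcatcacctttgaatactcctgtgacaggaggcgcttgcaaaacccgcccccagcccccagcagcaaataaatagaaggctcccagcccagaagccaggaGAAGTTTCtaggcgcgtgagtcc
Hsph1: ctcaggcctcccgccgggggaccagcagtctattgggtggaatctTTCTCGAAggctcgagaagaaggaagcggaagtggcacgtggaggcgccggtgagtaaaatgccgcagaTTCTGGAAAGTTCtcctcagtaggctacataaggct
Hspe1: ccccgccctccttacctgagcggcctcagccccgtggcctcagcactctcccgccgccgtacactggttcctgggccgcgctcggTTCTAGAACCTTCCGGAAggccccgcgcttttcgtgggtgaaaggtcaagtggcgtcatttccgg
In Hsph1 and Hspe1 neighbouring matches overlap, which gives the longer runs of capitals.

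Over the 250 bases before the start, searched on both strands, 10 of the 15 heat shock list genes that rose and had a RefSeq window held this element, beside 1 of 5 that were not called. The element was in 10.4% of 8595 tested genes with a window and in 8.33% of the 168 called lower. It was in 19.6% of the 209 called higher, a share that includes these 10 genes. Bag3, Dnaja1, Stip1, Cacybp and Hspd1 held it as well. The matches of Hspd1 are the same bases as those of Hspe1 on the opposite strand, and they count for both genes. The window of Hspa1a did not contain these letters. A match is a match of letters and not evidence of binding.

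Hspa1a, the stress-inducible heat shock protein 70, had the largest difference of any named gene. Control rats read 7.26, 7.32, 7.34 and 7.39, and rats with linalool alone 7.94, 8.04, 8.11 and 8.33. Restrained rats read 8.59, 10.79, 11.79 and 11.90 without linalool and 11.06, 11.75, 12.63 and 12.83 with it. Every restrained rat was above every unrestrained rat, and the 2 unrestrained groups did not overlap either. The mean was 7.72 ± 0.43 in unrestrained and 11.42 ± 1.34 in restrained rats (SD, n = 8; log2 difference 3.70, SE 0.38, adjusted p = 4.35e-05). The linalool difference, averaged over both restraint conditions, was 1.04 and did not pass (adjusted p = 0.218). Signal of the near-identical Hspa1b cannot be told from it with certainty. A probe set that the annotation gives to several genes, and that is therefore not named, had a larger difference still (4.33, SE 0.33).

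Genes of cochaperones and small heat shock proteins rose too. Hspb1, a small heat shock protein, read 7.37 to 8.19 in unrestrained rats and 8.11 to 11.75 in restrained rats (medians 7.84 and 9.89), a difference of 2.13 (SE 0.31, adjusted p = 0.000794). Dnajb1, the cochaperone of heat shock protein 70, read 9.62 to 9.98 against 10.30 to 12.04 and rose by 1.51 (SE 0.15, adjusted p = 2.42e-05). Bag3, which links heat shock protein 70 to autophagy, rose by 1.00 (SE 0.14), Chordc1 by 0.85 (SE 0.11), Hspb8 by 0.77 (SE 0.10) and the small heat shock protein gene Cryab by 0.72 (SE 0.10). The mitochondrial chaperonin pair rose less, Hspd1 by 0.37 (adjusted p = 0.011) and Hspe1 by 0.30 (adjusted p = 0.0316), the latter missing the threshold in 10 of 16 fits that left out 1 array. The factor genes themselves were not called, Hsf1 at 0.06 (adjusted p = 0.799) and Hsf2 at -0.02 (adjusted p = 0.92).

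Restraint rat 3 stood below the other restrained rats across this list. The level of a list in a rat is the mean over its members of the log2 value minus that gene's mean in the 8 unrestrained rats. For heat shock genes it was 0.13 in restraint rat 3, 0.53 to 1.05 in the other 7 restrained rats and -0.13 to 0.10 in unrestrained rats. That rat gave the lowest restrained value for Hspa1a (8.59), Hspb1 (8.11) and Dnajb1 (10.30). For glucocorticoid-responsive kinase, fuel and growth genes it was at 0.93, inside the 0.77 to 1.19 of the other restrained rats. Without it the differences of Hspa1a and Hspb1 were 4.06 and 2.33, and 17 heat shock genes were called. Within the 13 BioC-low arrays 12 of the 23 heat shock genes were called higher, and 14 of the 18 glucocorticoid-responsive kinase, fuel and growth genes.

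**Figure D3:**
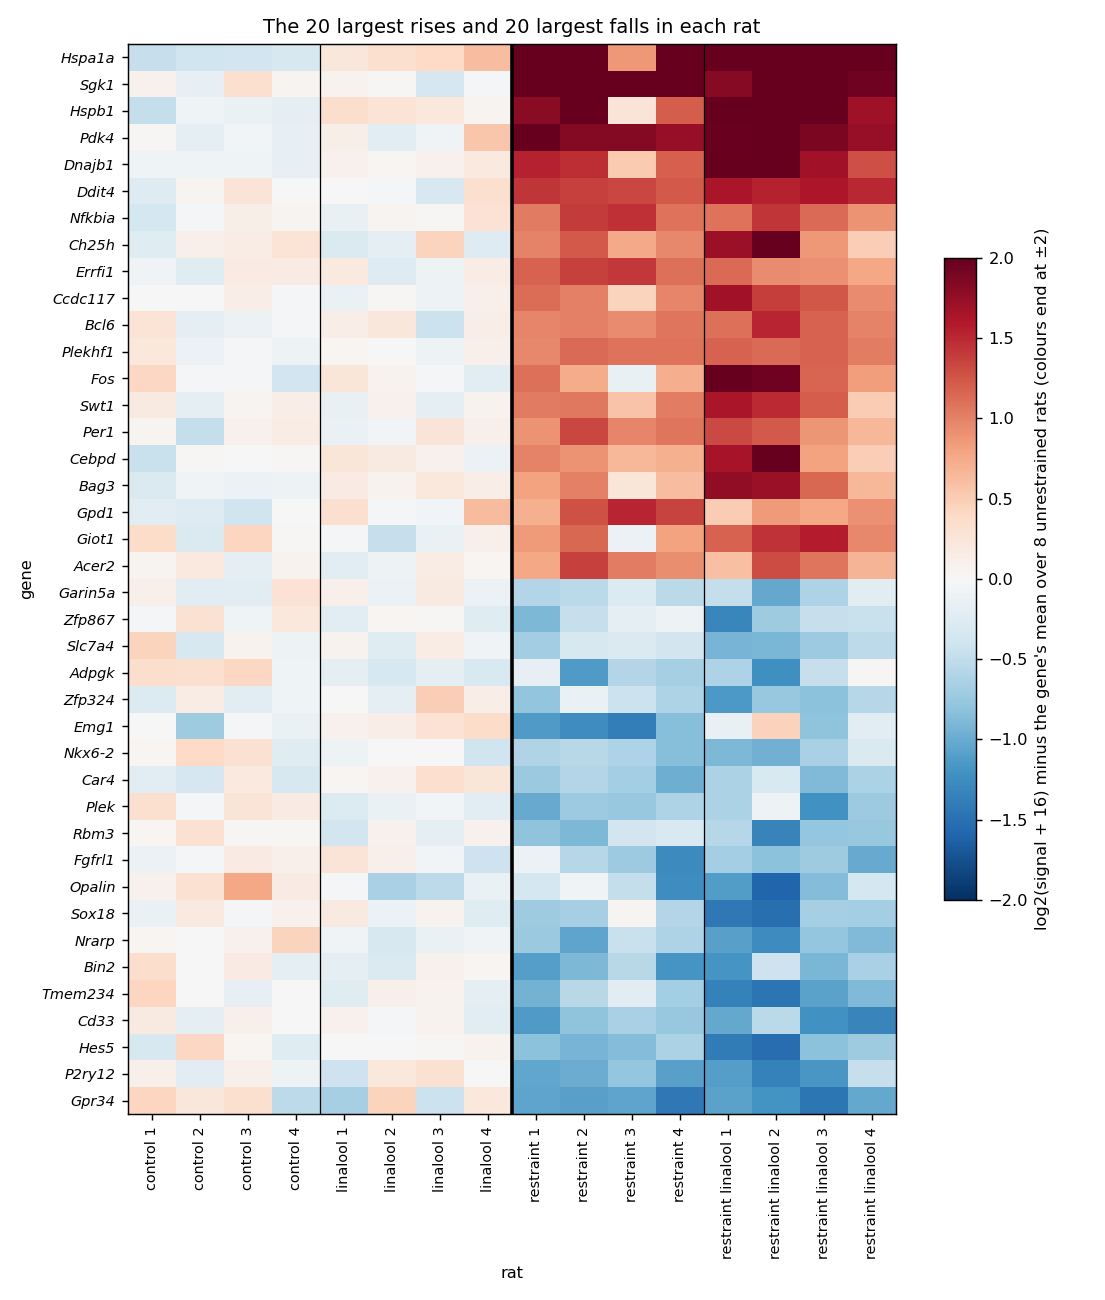
Each cell is the log2(signal + 16) of 1 gene in 1 rat minus that gene's mean over the 8 unrestrained rats, for the 20 largest rises and 20 largest falls among called genes, with colours ending at 2 on either side. Hspa1a, Hspb1 and Fos are pale in restraint rat 3 while Sgk1, Pdk4 and Ddit4 are as dark there as in the other restrained rats.

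Fos and Jun genes, the first answer of neurons to activity, rose in 3 of 6 tested members, with a list median of 0.52. Fos read 8.19, 8.53, 8.53 and 8.99 in controls and 8.35, 8.53, 8.64 and 8.82 with linalool alone. It read 8.42, 9.31, 9.31 and 9.68 with restraint and 9.40, 9.73, 10.53 and 10.77 with restraint and linalool. The 7 restrained rats other than restraint rat 3 were above all unrestrained rats, and the difference was 1.07 (SE 0.20, adjusted p = 0.00691). Jun, the partner of Fos, read 8.90 to 9.43 against 9.41 to 10.93 and rose by 0.88 (SE 0.14, adjusted p = 0.00183). Fosb rose by 0.69 (SE 0.11, adjusted p = 0.00128) without overlap, from 5.71 to 6.18 in unrestrained to 6.20 to 7.25 in restrained rats. Junb (0.35, adjusted p = 0.103) and Jund (-0.10, adjusted p = 0.454) were not called. Fos was not called within the BioC-low arrays (0.95, adjusted p = 0.0637).

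Among 21 other immediate early genes 6 rose and 0 fell, with a median of 0.27. Gadd45g, a growth arrest gene, read 6.60 to 7.20 against 7.33 to 8.23 and rose by 0.73 (SE 0.11, adjusted p = 0.00134), the 1 member of this list whose sets did not overlap. Nr4a1, an orphan nuclear receptor induced by activity, rose by 0.88 (SE 0.21, adjusted p = 0.0257), from 7.03 to 7.43 in unrestrained to 7.22 to 9.38 in restrained rats. It missed the threshold without restraint rat 1 or 2, linalool rat 3 or restraint with linalool rat 2, with an adjusted p of at most 0.0591. Klf6 rose by 0.63 (SE 0.10), Crem, a repressor of cAMP signalling, by 0.51 (SE 0.11), and Rgs2, which shortens G protein signals, by 0.35 (SE 0.07). Egr1 (0.54, SE 0.19, adjusted p = 0.127) and Homer1 (-0.10, adjusted p = 0.57) did not pass. None of 5 tested genes of MAP kinase feedback was called. The immediate early count was 11 with the values as deposited, 2 within the BioC-low arrays and 3 without the 2 arrays of lowest median signal, control rat 2 and linalool rat 3.

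The immediate early response was also uneven between rats. Restraint with linalool rats 1 and 2 had the highest levels of the Fos and Jun list (0.93 and 1.00) and shared the highest heat shock level (1.05). Restraint rat 3 had the lowest Fos and Jun level (-0.06), within the -0.08 to 0.07 of unrestrained rats. The other 5 restrained rats lay between 0.32 and 0.53. BioC was high in restraint with linalool rat 2 and low in restraint with linalool rat 1 and restraint rat 3, and its part in these levels was not tested.

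Promoters with the cAMP response element TGACGTCA were found for 10 of the 209 genes called higher with a RefSeq window (4.78%), against 3.09% of tested genes. Of the 168 genes called lower with a window, 2 held it (1.19%). Ch25h and Plekhf1, which belong to the 20 largest rises, are shown with the element in capitals, both on the minus strand, Ch25h at chr1:241429367-241429516 and Plekhf1 at chr1:100046818-100046967 on build GRCr8.
Ch25h: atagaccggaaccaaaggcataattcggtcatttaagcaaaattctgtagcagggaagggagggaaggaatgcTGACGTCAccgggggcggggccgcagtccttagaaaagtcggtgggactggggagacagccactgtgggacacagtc
Plekhf1: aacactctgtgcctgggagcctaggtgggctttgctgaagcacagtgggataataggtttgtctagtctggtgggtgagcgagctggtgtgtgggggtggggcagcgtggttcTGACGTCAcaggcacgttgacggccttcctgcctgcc
Crem, Giot1 and Hsp90ab1 were among the other genes called higher with this element. Garin5a, which fell, and Jund, which was not called, held it too. The E-box CACGTG was in 10% of genes called higher and 8.91% of those tested. The short site AGAACA, part of the element read by the glucocorticoid receptor, was in 8.13% of genes called higher, 13.1% of those called lower and 11.4% of those tested. The full glucocorticoid response element was in 0 of the 8595 tested genes with a window, and the serum response element in 4 (0.0465%). Neither was in a window of a called gene, and both were too rare for that to set called genes apart. No match says only that these letters are absent from the 250 bases searched.

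Of 22 tested genes of the endoplasmic reticulum stress response 7 rose, with 0 lower and a median of 0.21. Herpud1, part of the disposal of misfolded protein, read 8.85 to 9.46 against 9.54 to 10.27 and rose by 0.73 (SE 0.10, adjusted p = 0.000493). Hspa5, the main chaperone of this compartment, read 11.91 to 12.33 against 12.36 to 12.69 and rose by 0.43 (SE 0.07, adjusted p = 0.00156). In both genes the restrained rats were all above the unrestrained rats. Ddit3, a transcription factor gene of prolonged stress, rose by 0.44 (SE 0.09), Hsp90b1 by 0.31 (SE 0.05) and Manf by 0.31 (SE 0.07). Manf missed the threshold in 7 of 16 fits that left out 1 array. Calr (0.24, adjusted p = 0.0699), Pdia3 (0.11, adjusted p = 0.309) and Canx (0.01, adjusted p = 0.911), which fold glycoproteins, were not called. The count fell to 4 without restraint rat 2, linalool rat 1, linalool rat 3, restraint with linalool rat 2 or restraint with linalool rat 3, and to 2 within the BioC-low arrays.

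Clock genes rose in 2 of 18 cases and fell in 1, with Per1 counted among the glucocorticoid feedback genes. Per1, a period gene that glucocorticoids induce directly, read 6.86 to 7.59 against 7.99 to 8.67 and rose by 1.05 (SE 0.11, adjusted p = 7.6e-05). Per2 read 8.14 to 8.45 against 8.64 to 8.95 and rose by 0.49 (SE 0.06, adjusted p = 0.000335), and Nfil3, a repressor of clock output, rose by 0.81 (SE 0.14, adjusted p = 0.00285). None of these 3 genes overlapped between restrained and unrestrained rats. Dbp, a clock output factor, fell by 0.30 (SE 0.08, adjusted p = 0.0331). It missed the threshold in 9 of 16 fits that left out 1 array and was at -0.08 (adjusted p = 0.654) with the values as deposited. The core genes Clock, Bmal1 and Nr1d1 were at 0.00, 0.07 and 0.00 and were not called. The list's median as deposited was 0.24, near the 0.20 of all genes there.

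Rbm3, an RNA-binding protein gene known to be raised by cold, fell with restraint. It read 9.54 to 10.21 in unrestrained rats (median 9.93) and 8.57 to 9.60 in restrained rats (median 9.14), a difference of -0.73 (SE 0.12, adjusted p = 0.00218). The overlap was linalool rat 1 at 9.54 and restraint rat 4 at 9.60, and the lowest value was that of restraint with linalool rat 2. Cirbp, the other well-known cold-inducible gene, was not called (-0.08, SE 0.10, adjusted p = 0.753), nor were Rbmx (-0.26, adjusted p = 0.0825) and Srsf5 (-0.12, adjusted p = 0.424). As deposited, Rbm3 was 0.51 lower and still called (-0.51, adjusted p = 0.0282).

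**Figure D4:**
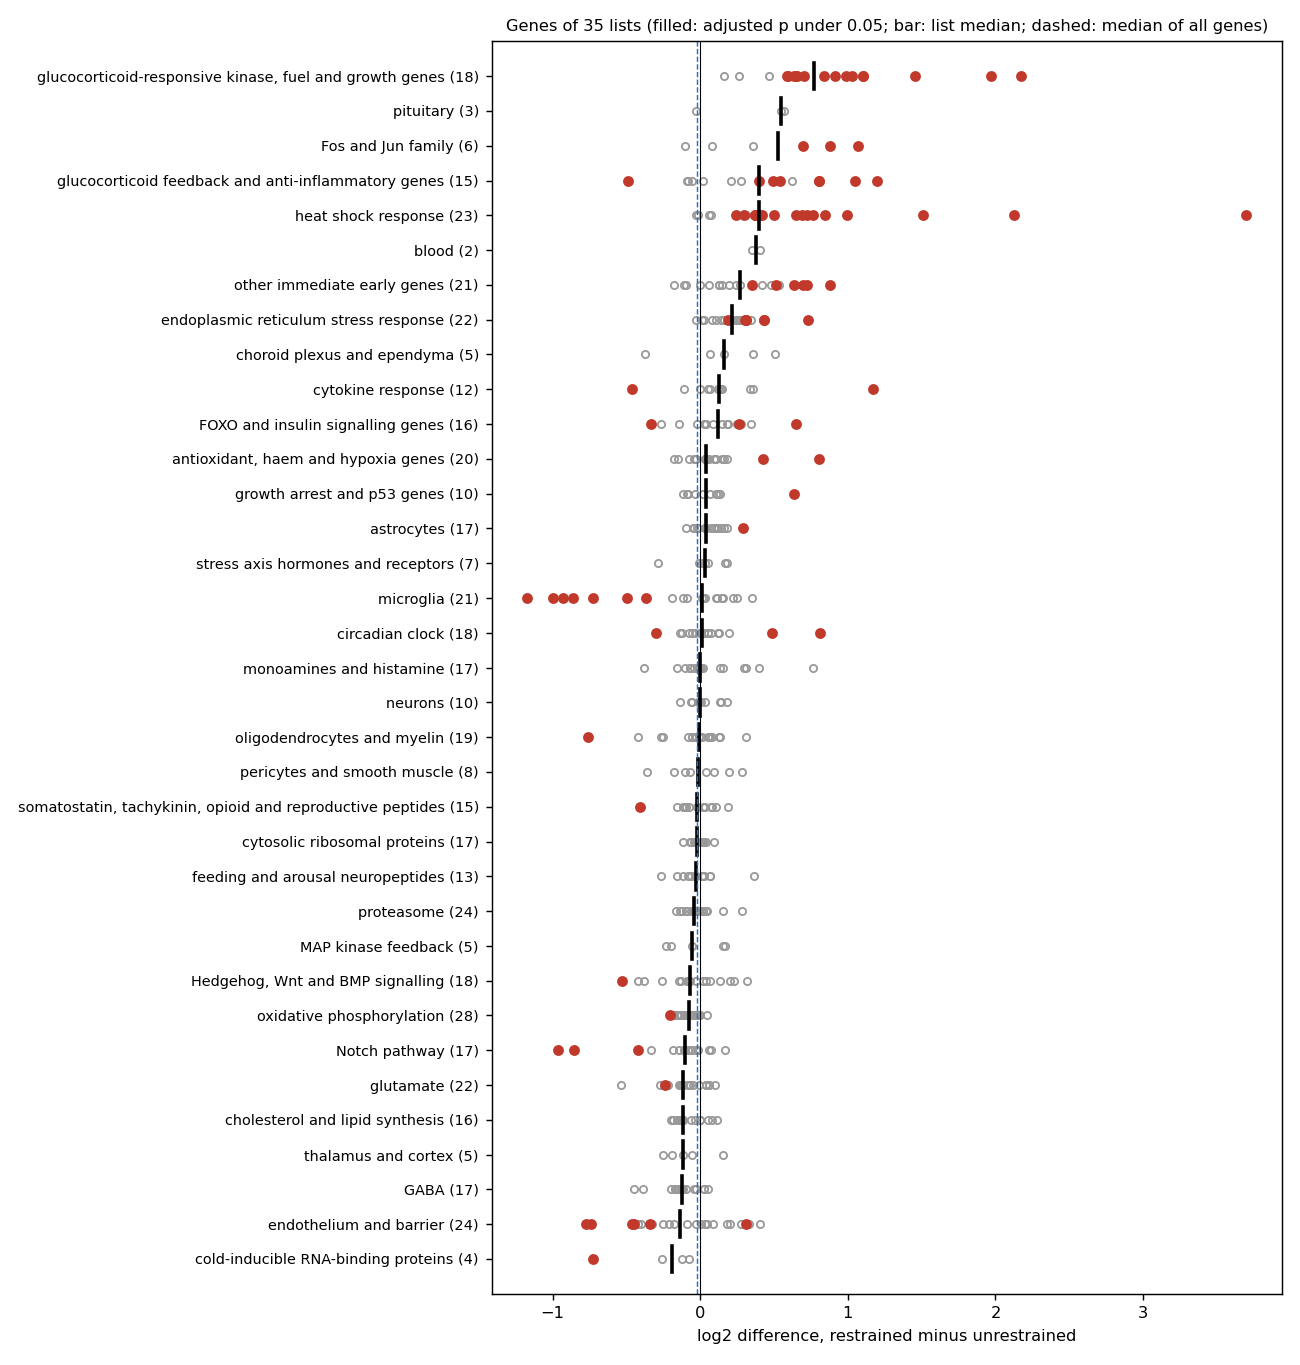
Each row is 1 of 35 gene lists with its number of tested genes, each point a gene's average restraint difference on the log2 scale, filled where the adjusted p was under 0.05, with a bar at the list median and a dashed line at the median of all genes (-0.02). The glucocorticoid, heat shock and Fos and Jun lists lie to the right, and the microglia list holds filled points only on the left around a median of 0.01.

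The largest falls included genes of microglia, the immune cells of the brain. Of 21 tested microglia markers 7 fell and 0 rose, while the list's median was 0.01. That median was -0.29 without linalool and 0.04 with it. Gpr34, a lysophosphatidylserine receptor, read 6.84 to 7.94 in unrestrained rats (median 7.72) and 6.06 to 6.48 in restrained rats (median 6.42), a difference of -1.17 (SE 0.16, adjusted p = 0.000592). P2ry12, the purine receptor that guides microglial processes, read 8.83 to 9.55 against 7.88 to 8.78 and fell by 1.00 (SE 0.12, adjusted p = 0.000237). Cd33, an inhibitory sialic acid receptor, read 7.08 to 7.49 against at most 6.78 and fell by 0.93 (SE 0.11, adjusted p = 0.000112). Every restrained rat was below every unrestrained rat for these 3 genes and for Bin2, which fell by 0.86 (SE 0.12, adjusted p = 0.000592).

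Plek fell by 0.72 (SE 0.12), Cx3cr1, the fractalkine receptor, by 0.49 (SE 0.09) and Irf8, a lineage factor of microglia, by 0.37 (SE 0.10). Irf8 missed the threshold in 14 of 16 fits that left out 1 array. The other 14 markers were not called and ran from -0.19 (Aif1) to 0.35 (C1qc). Among these were Csf1r, the growth factor receptor that microglia depend on (0.22, adjusted p = 0.187), C1qa (0.14, adjusted p = 0.668), Tmem119 (0.15, adjusted p = 0.414) and Ctss (0.12, adjusted p = 0.59). The list level in single rats overlapped, -0.15 to 0.14 in unrestrained and -0.43 to 0.22 in restrained rats. Rats restrained without linalool were at -0.43 to -0.12, and the 0.22 was that of restraint with linalool rat 2. In a piece of whole tissue, fewer cells of a type and less RNA per cell cannot be told apart. As deposited, Gpr34, P2ry12, Cd33, Bin2 and Plek were still called lower, between -0.95 and -0.51. A filter at the 60th percentile of mean signal left 1 call, P2ry12, because the other 6 lay below it.

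Of 17 tested genes of the Notch pathway 3 fell and 0 rose, with a list median of -0.10. Hes5, a repressor gene switched on by Notch, read 7.16 to 7.90 in unrestrained rats and 5.96 to 6.85 in restrained rats, a difference of -0.96 (SE 0.12, adjusted p = 0.000326). Nrarp, a Notch feedback inhibitor, read 8.66 to 9.43 against 7.72 to 8.54 and fell by 0.85 (SE 0.10, adjusted p = 0.00011). Neither gene overlapped between the sets. Hey2, another Notch target, fell by 0.42 (SE 0.08, adjusted p = 0.00663), and was at -0.20 (adjusted p = 0.326) as deposited and at -0.39 (adjusted p = 0.061) within the BioC-low arrays. Hes1 (0.17, adjusted p = 0.434), the receptor gene Notch1 (0.06, adjusted p = 0.733) and the inhibitor gene Id3 (0.07, adjusted p = 0.758) were not called. As deposited, Hes5 and Nrarp stayed called, at -0.74 and -0.63.

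Endothelial genes fell in 5 of 24 cases and rose in 1. Sox18, a transcription factor of vessel endothelium, read 7.50 to 7.92 against 6.24 to 7.80 and fell by 0.77 (SE 0.14, adjusted p = 0.00544). Restraint rat 3, at 7.80, was the 1 restrained rat within the unrestrained range. Fgfrl1, a fibroblast growth factor receptor without a kinase domain, fell by 0.74 (SE 0.13), Egfl7 by 0.46 (SE 0.10), Sox7 by 0.45 (SE 0.10), and the transporter gene Slco1a4 by 0.34 (SE 0.09). Slco1a4 missed the threshold in 14 of 16 fits that left out 1 array. Slc2a1, the glucose transporter of the blood-brain barrier, rose by 0.31 (SE 0.08, adjusted p = 0.0392) and missed the threshold in 12 of 16 fits that left out 1 array. The tight junction gene Cldn5 (-0.21, adjusted p = 0.437) and the adhesion gene Pecam1 (0.01, adjusted p = 0.978) were not called, nor was any of 8 pericyte and smooth muscle genes. As deposited, Sox18 alone of the 5 was called lower (-0.54, adjusted p = 0.0284), with a list median of 0.09 against 0.20 over all genes. The blood markers Hbb (0.35, adjusted p = 0.421) and Alas2 (0.41, adjusted p = 0.453) were highest in restraint rat 3.

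Other large falls had no list in common. Opalin, a membrane protein gene of mature oligodendrocytes, fell by 0.76 (SE 0.19, adjusted p = 0.0305), while the other 18 oligodendrocyte genes tested, such as Mbp (-0.08) and Mobp (0.08), were not called. Opalin missed the threshold without control rat 3, linalool rat 1 or 4, or restraint with linalool rat 1 or 2, with an adjusted p of at most 0.0675. Tmem234 fell by 0.90 (SE 0.12, adjusted p = 0.000345), the carbonic anhydrase gene Car4 by 0.68 (SE 0.10, adjusted p = 0.000728), the homeobox gene Nkx6-2 by 0.68 (SE 0.11, adjusted p = 0.00222), and Emg1, a ribosome assembly factor, by 0.67 (SE 0.15, adjusted p = 0.0197). Zfp324, Slc7a4, Adpgk, Zfp867 and Garin5a fell by 0.53 to 0.66. Of these, Adpgk missed the threshold in 13 of 16 fits that left out 1 array and Zfp867 without linalool rat 3. Tac3, which encodes neurokinin B, was the 1 of 15 tested genes of somatostatin, tachykinin, opioid and reproductive peptides that was called, and it fell by 0.41 (SE 0.08, adjusted p = 0.00666). Axin2, a target of Wnt signalling, fell by 0.53 (SE 0.10), and the chemokine gene Cxcl12 by 0.46 (SE 0.10). Among 16 tested genes of FOXO and insulin signalling 2 rose and 1 fell. The fall was of Trib2, a pseudokinase gene (-0.33, SE 0.06, adjusted p = 0.00424), and the smaller rise of the transcription factor gene Foxo3 (0.26, SE 0.07, adjusted p = 0.0348), which missed the threshold in 8 of 16 fits that left out 1 array.

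Of the 35 named falls, 11 were also called lower with the values as deposited, while 54 of 55 named rises were also called higher there. The exception among the rises was Hsp90ab1 (0.41, adjusted p = 0.0512). As deposited, the median probe set was 0.21 higher in restrained rats, which favours calls of rises over calls of falls. The 11 were Gpr34, P2ry12, Hes5, Cd33, Tmem234, Bin2, Nrarp, Sox18, Rbm3, Plek and Nkx6-2. All 35 kept a negative sign there, but Slc1a1, a neuronal glutamate transporter, went from -0.24 to -0.01 and Ndufv2, a subunit of mitochondrial complex I, from -0.21 to -0.0042.

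Several of the largest rises were of genes outside the stress lists. Plekhf1, an endosome protein gene, read 7.40 to 7.72 in unrestrained rats (median 7.51) and 8.47 to 8.70 in restrained rats (median 8.63), a difference of 1.10 (SE 0.06, adjusted p = 2.78e-08). Restrained rats varied little in this gene, and restraint rat 3 was at 8.61. Ccdc117 read 6.99 to 7.25 against 7.57 to 8.80 and rose by 1.10 (SE 0.10, adjusted p = 2.04e-05), with its lowest restrained value in restraint rat 3. Ch25h, which makes 25-hydroxycholesterol and was the 1 rise among 12 tested cytokine response genes, read 6.58 to 7.32 against 7.35 to 9.20 and rose by 1.17 (SE 0.21, adjusted p = 0.00453). Swt1 rose by 1.07 (SE 0.13), the zinc finger gene Giot1 by 0.98 (SE 0.16), and Acer2, a ceramidase gene, by 0.97 (SE 0.11). Hmox1, haem oxygenase, rose by 0.80 (SE 0.20, adjusted p = 0.0338) and Srxn1, a sulfiredoxin gene, by 0.43 (SE 0.09), the 2 calls among 20 antioxidant, haem and hypoxia genes. Hmox1 missed the threshold in 9 of 16 fits that left out 1 array. The astrocyte connexin gene Gjb6 rose by 0.29 (SE 0.06, adjusted p = 0.00833), the 1 call among 17 astrocyte genes.

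The hormones that start the stress response were not called. Crh, the releasing hormone of the stress axis, read 7.09 to 7.74 in unrestrained rats and 7.05 to 8.07 in restrained rats, a difference of 0.17 (SE 0.12, adjusted p = 0.495). Avp was at 0.03 (SE 0.16, adjusted p = 0.945) and Oxt at -0.01 (SE 0.10, adjusted p = 0.978). None of 7 tested stress axis genes, 13 feeding and arousal neuropeptides, 17 GABA genes or 17 monoamine and histamine genes was called. Among glutamate genes Slc1a1 was the 1 call of 22, and it missed the threshold in 14 of 16 fits that left out 1 array. The 10 neuron markers, 16 cholesterol and lipid synthesis genes, 17 cytosolic ribosomal protein genes and 24 proteasome genes had no call either. Of 28 oxidative phosphorylation genes Ndufv2 was called, and it missed the threshold in 13 of 16 fits that left out 1 array. The difference was negative in 27 of the 28, beside 57% of all genes tested, and the list's median was -0.07. That median was 0.12 as deposited against 0.20 over all genes. A p that misses the threshold does not show that a gene was unchanged.

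Few called probe sets differed in direction between the odour conditions. Of the 784 probe sets called for the average, 783 had the same sign without and with linalool, which the use of both differences in the average favours. A test of the interaction called 0 probe sets in limma. Its unadjusted p was under 0.05 in 1489 of 18625 (7.99%), and in 94 of the 784 called for the average (12%). Both shares exceed the 0.05 that would be reached if no probe set differed, and this excess was not tested. The smallest adjusted p of the interaction was 0.0565, for Inpp5b, an inositol phosphatase gene. Control rats read 9.42 to 9.63 there and restrained rats without linalool 8.67 to 8.96, while linalool rats read 9.09 to 9.34 and restrained rats with linalool 9.25 to 9.50. Its fall by 0.26 on average (adjusted p = 0.0239) was thus made of -0.70 without and 0.17 with linalool, and the average missed the threshold without restraint rat 2.

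For Sgk1, Pdk4 and Plekhf1 the differences without and with linalool lay close. Sgk1 rose by 2.27 without and 2.07 with linalool, Pdk4 by 2.01 and 1.93, and Plekhf1 by 1.07 and 1.12. Differences for activity and heat shock genes were numerically larger with linalool, such as Fos at 0.62 and 1.52, Jun at 0.45 and 1.31, Nr4a1 at 0.33 and 1.43, and Hspb1 at 1.69 and 2.57. Gpd1, a glucocorticoid-responsive gene, went the other way, 1.44 and 0.54. No such contrast passed the interaction test after adjustment. The unadjusted p was 0.0417 for Fos, 0.00706 for Jun, 0.0185 for Nr4a1, 0.171 for Hspb1 and 0.00213 for Gpd1. Restraint rat 3, with low Fos and heat shock values, is among the rats without linalool. Restraint with linalool rats 1 and 2, with the highest Fos and Jun levels, are among those with it. The part of single rats in these contrasts was not tested.

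**Figure D5:**
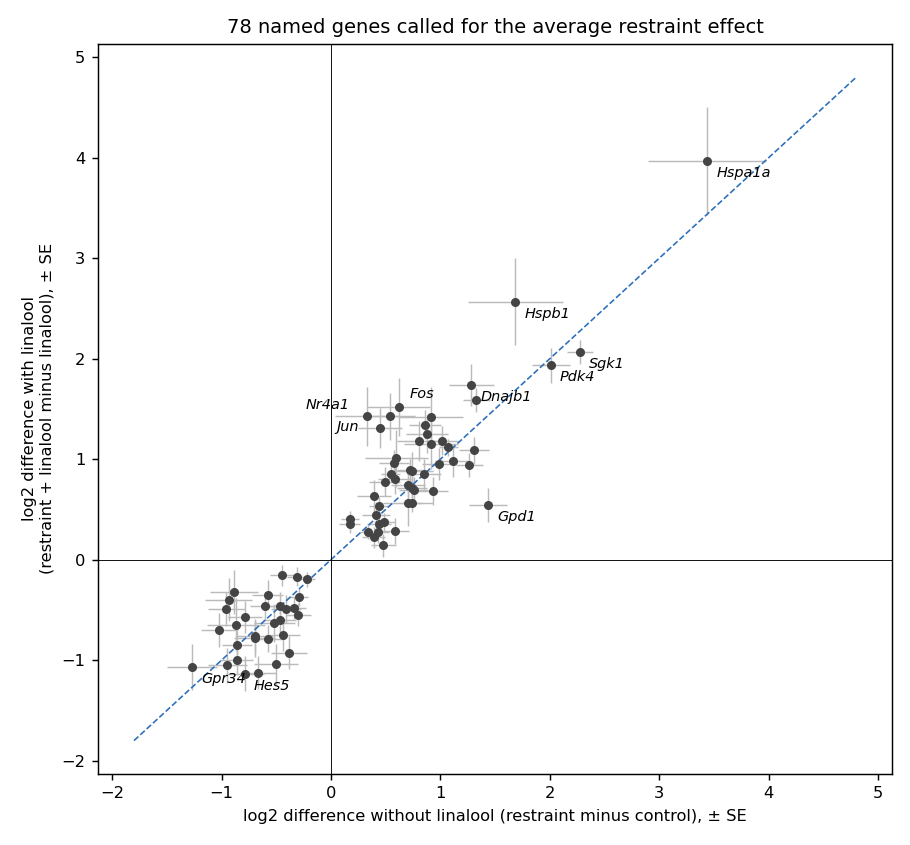
Each point is 1 of 78 of the named genes called for the average, drawn at its restraint difference without linalool (horizontal) and with linalool (vertical), on the log2 scale with limma's standard error. Points follow the dashed line of equality, with Fos, Jun, Nr4a1 and Hspb1 above it and Gpd1 below it. Inpp5b, whose differences had opposite signs, is not drawn.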

How the data were processed

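Gene expression was measured on 1 single-colour Affymetrix array per rat. The authors' deposited table held linear signal intensity for 31099 probe sets, made with MAS5 per the submitters' processing notes, with a scaling target not given in the sources used here. Medians of the deposited values differed between arrays, so arrays were quantile-normalized on the log2 scale, and log2(signal + 16) was taken of the result, with 16 as the pseudocount. After 57 control probe sets were left out, probe sets with a mean at or above the 40th percentile were kept (18625). A group-means model was fitted to all 16 arrays by limma's lmFit and eBayes (version 3.58.1, R 4.3.3; two-sided, 12 residual and 3.97 prior degrees of freedom), and Benjamini-Hochberg adjustment ran over all kept probe sets. The fit was checked on simulated data. The number of arrays limits the precision.

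Names came from the platform's annotation, in which 20826 probe sets had 1 symbol, 436 several (not named) and 9780 none. A gene was represented by its brightest kept probe set. Of 115 called genes with several kept probe sets, all of these had the same sign in 101. Another probe set was called the same way in only 36 of the 115, and 2 genes had a probe set called the other way. Named were the 20 largest rises and 20 largest falls among called genes, up to 5 called and 3 uncalled members of each of 35 lists, the 3 smallest interaction p-values, and always Sgk1, Fkbp5, Per1, Fos, Nr4a1, Avp and Crh. Further members were named after their values were seen, to complete a count or describe a list. Of 679 listed genes, 506 were tested, 93 were below the filter and 80 had no probe set of that single symbol. The comparison, lists and promoter motifs were chosen with earlier results of these data known. Promoter sequences are RefSeq's, build GRCr8. Alternatives covered normalization, pseudocount, filter, model, BioC, the beta-actin ratio and each array left out.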

Additional observations from a re-analysis of the deposited data

Results flagged for a closer look

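In groups of 4 rats, 12 of 176 sets of values (44 genes in 4 groups) had a rat whose gap to the nearest of the others exceeded Dixon's critical share of the group's range. Chance flags about 1 in 20 such groups. The 3 in restraint rat 3 were Swt1 at 8.37 (the other 3 rats at 8.83 to 8.86), Sox18 at 7.80 (7.04 to 7.17) and Garin5a at 6.69 (6.37 to 6.42), each nearer to the unrestrained rats than the rest of its group. In the other restrained rats, Pdk4 was at 9.38 in restraint rat 1 (8.88 to 8.97) and Gpr34 at 6.07 in restraint rat 4 (6.41 to 6.45).

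Among unrestrained rats, control rat 2 was apart for Per1 at 6.86 (7.39 to 7.49) and Rbm3 at 10.21 (9.92 to 9.93), and control rat 4 for Dnajb1 at 9.62 (9.69 to 9.70) and Nrarp at 9.43 (8.99 to 9.06). Control rat 1 had Cebpd at 6.29 (6.73 to 6.75). Linalool rat 3 had Ch25h at 7.32 (6.58 to 6.69) and Bcl6 at 8.17 (8.73 to 8.82). No rat that had restraint with linalool was flagged.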

How the results depend on the processing

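With values as deposited, 1016 probe sets were called higher and 19 lower, the interaction called 1, 11 other immediate early genes were higher and 1 endothelial gene was lower. Without a filter on dim probe sets, which raises the number tested to 31042, 164 were lower and 4 endoplasmic reticulum genes higher. The 60th percentile filter left 1 microglia and 2 endothelial genes lower, with 1 interaction call. Median centring left 4 endoplasmic reticulum genes. The interaction called 1 with a pseudocount of 64, an intensity trend or the BioC block, and 14 with a covariate for the beta-actin 3'/5' ratio; that ratio averaged 1.60 (log2) in restrained and 1.58 in unrestrained rats. Within the 13 BioC-low arrays 128 probe sets were lower, and 2 endoplasmic reticulum and 2 other immediate early genes higher. Without control rat 2 and linalool rat 3, a choice made after seeing the data, 155 were lower and 3 other immediate early genes higher. The cause of these shifts was not tested.

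With 1 array left out, higher calls ran from 341 to 623, lower from 148 to 382 and interaction calls from 0 to 1. List counts ran from 14 to 15 (glucocorticoid kinase and fuel), 6 to 7 (feedback), 15 to 17 (heat shock), 4 to 8 (endoplasmic reticulum), 3 to 3 (Fos and Jun), 4 to 9 (other immediate early), 6 to 7 (microglia), 3 to 4 (Notch) and 4 to 6 (endothelium). Of 90 named called genes, 73 kept the call without each array in turn, and none of the 90 was called in the opposite direction under any setting. Within the BioC-low arrays 62 of the 90 kept the call, 40 of 55 rises and 22 of 35 falls. Those not called there included Nr4a1, Cx3cr1, Hsp90b1, Ddit3, Opalin and Hspd1.

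The titles number the rats 1 to 4 in every group. Same-number rats did not deviate together, with 4 of 24 pairs correlated over 0.1 and 5 of 16 rats closest to their own number. With the replicate number as a block, 719 probe sets were called, 647 of them among the 784, and 4 endoplasmic reticulum genes were higher. Dim signals limit what the falls can show, since several lay near the lower end of the kept range.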
